A study of Mus musculus with 2 samples.

Results

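Serpins are a superfamily of protease inhibitors, and 40 of their genes were read here on 2 arrays of embryonic mouse diaphragm, 1 labelled wild type (RP58+/+) and 1 labelled RP58 knockout (RP58-/-). Members are the genes whose single symbol in the array's annotation begins with Serpin, a clade letter from a to i and a number, with the brightest of its probe sets giving the value of a gene. They are 40 of 18193 genes so named on the array, read by 56 probe sets: 14 genes of clade A, 18 of clade B, 2 each of clades F and I, and 1 each of clades C, D, G and H. Clade E is not analysed here. Both samples were muscle of the C57/BL6 strain at stage E18.5, and RP58 is the zinc finger repressor gene now named Zbtb18. The making of the knockout allele and the number of embryos behind each sample are not given in the sources used here. Both arrays are named by their labels, as the wild-type and the knockout array. The study asks what the loss of this repressor does to muscle gene expression.

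Most serpins inhibit serine proteases by offering an exposed loop as bait. When the protease cuts that loop, the serpin changes shape and traps the enzyme, so each molecule works once. Clades A, C, D and F are mainly secreted into plasma, many by hepatocytes, where they control clotting, fibrinolysis and leukocyte elastase or carry hormones. Clade B serpins lack a classical secretion signal and act mostly inside leukocytes and epithelial cells. Clade H holds Serpinh1 (Hsp47), which inhibits no protease and is a chaperone that helps procollagen to fold, also in the connective tissue of muscle.

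The measure is the difference of deposited log2 signals, knockout minus wild type, with 1 array for each genotype. There is no replicate, so no test was run, and a gene is called higher or lower when it differs by at least 1.5-fold (0.58 on the log2 scale). A floor was set at the 40th percentile of signal (log2 5.52), and genes under it are counted apart. The only repeat is that of several probe sets for a gene, whose differences had a pooled SD of 0.28 within a gene. Over 14093 genes above the floor the median difference was -0.003, 540 were higher and 918 lower. The targeted gene Zbtb18 was at 8.91 on the wild-type array and 9.21 on the knockout array, which does not check the labels, so each direction rests on them. A probe set outside the deleted part would check nothing, and its position was not analysed here. Xist was at 11.47 on the wild-type array and 6.96 on the knockout array, and the Y-linked gene Eif2s3y at 3.59 and 8.58, so the sex-linked signal differs between the samples and cannot be told apart from genotype. All 24 poly-A control probe sets were below 0, and their median was -0.75. Scaling to them would add 0.75 to every difference and turn the counts into 9990 higher and 182 lower, so all differences here are relative to the median gene.

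Of the serpins above the floor, 11 of 15 in clades A, C, D and F were higher on the knockout array, and 4 were within 1.5-fold. Of all 25 members above the floor, 11 were higher (44%) and 0 lower, where the background was 3.83% higher and 6.51% lower (10.3% in either direction) of all genes above the floor. All 11 lay in clades A, C and D and in Serpinf2 of clade F. Each of the 25 was above the floor on both arrays, so no member entered only through the array where it was high. Over all 40 members, 11 (27.5%) were higher and 0 lower, against 3.32% and 5.38% of 18193 genes with no floor. By a 2-fold rule 5 serpins were higher, beside 128 of the 14093 genes. Scaled to the poly-A controls, 24 of the 25 serpins were higher, beside 9990 of the 14093 genes.

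**Figure D1:**
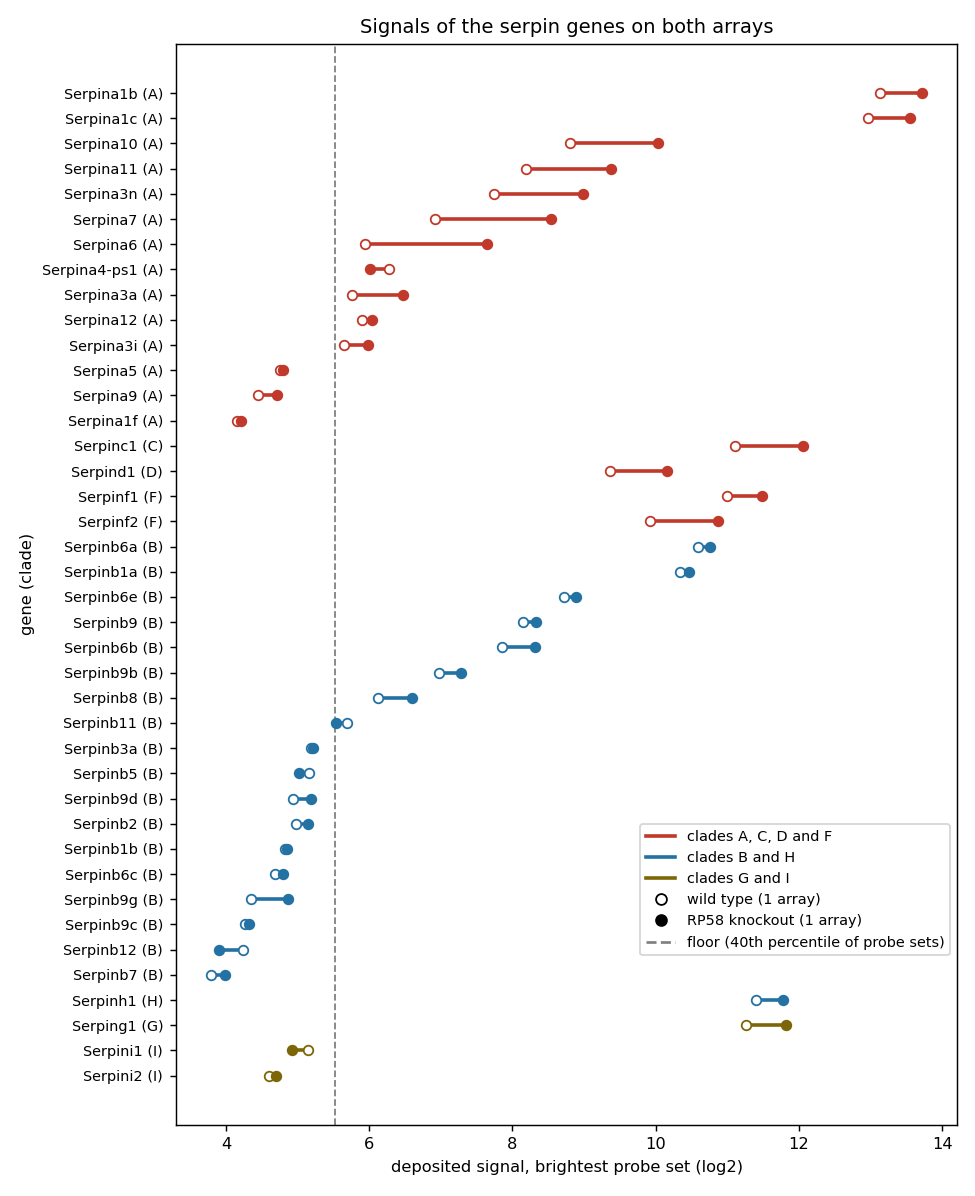
Deposited log2 signal of each of the 40 serpin genes on the wild-type array (open points) and on the RP58 knockout array (filled points), grouped by clade, with the floor at 5.52 as a dashed line. All bars of at least 1.5-fold belong to clades A, C, D and F, which also hold short ones. The bars of clades B and H are all shorter than 1.5-fold. 15 genes lie left of the floor on both arrays.

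By clade group, clades A, C, D and F had a median difference of 0.80 (1.74-fold) over 15 members above the floor, with 11 higher and 0 lower. Clades B and H had a median of 0.18 (1.14-fold) over 9 members above the floor. Of these, 0 were higher and 0 lower, a count close to the background of 10.3%. Yet 8 of the 9 were above 0, against 49.4% of all genes above the floor. The median of clades B and H was at the upper quartile of those genes, 0.18. The gap between the medians of both clade groups was 0.61. Over all members, those under the floor included, the medians were 0.65 for 18 genes and 0.17 for 19 genes, a gap of 0.48. The ranges overlapped, since clades A, C, D and F ran from -0.26 to 1.71 and clades B and H above the floor from -0.15 to 0.48. With 1 array for each genotype this gap has no test.

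**Figure D2:**
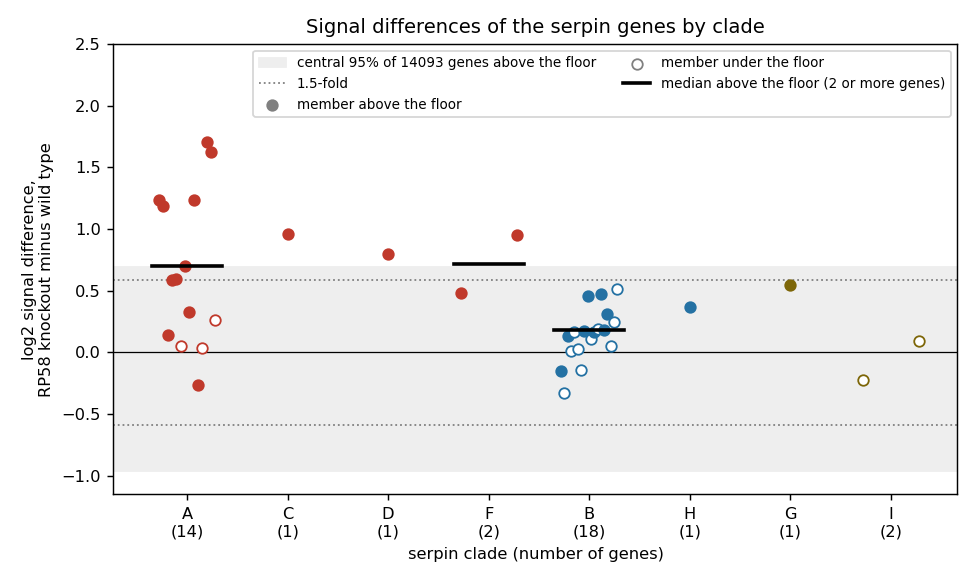
Difference of log2 signal, knockout minus wild type, for each serpin gene by clade (horizontal axis, number of genes in brackets). Filled points lie above the floor, open points under it, black bars are medians of clades with 2 or more genes above the floor, the band holds the central 95% of all 14093 genes (-0.96 to 0.69) and dotted lines mark 1.5-fold. 9 points of clades A, C, D and F lie above the band, and none of clades B, H, G and I does.

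The hormone carriers of clade A had the largest differences of all serpins read here. Serpina6, corticosteroid-binding globulin, which carries glucocorticoids in plasma and inhibits no protease, was at 5.94 on the wild-type array and 7.64 on the knockout array. Its difference of 1.71 (3.26-fold) was the 11th highest of the 14093 genes. Serpina7, thyroxine-binding globulin, was at 6.92 and 8.54, a difference of 1.63 (3.09-fold) and the 13th highest. Both exceeded the highest of 18 liver markers, Hpx at 1.32, and no other serpin did. Serpina7 is X-linked, and the sex-linked signal differed between the samples as given above; its part in the difference was not tested.

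Of the antitrypsin and antichymotrypsin relatives above the floor, 4 were higher and Serpina3i was within the rule. Serpina1b and Serpina1c, copies of the alpha-1 antitrypsin gene, whose product restrains neutrophil elastase, were at 13.13 and 12.96 on the wild-type array and at 13.72 and 13.56 on the knockout array. Their differences of 0.590 and 0.593 lie just past the 1.5-fold rule, under which both fall when differences are centred on the median probe set. The highest signal of any probe set was 14.39 on the wild-type and 14.36 on the knockout array. A second probe set of Serpina1b differed by 0.67. Serpina3n, a mouse relative of antichymotrypsin made in the acute phase response, was at 7.74 and 8.98, a difference of 1.24 (2.36-fold). Serpina3a, another copy of that family, was at 5.77 and 6.47 (0.70), and Serpina3i at 5.65 and 5.98 (0.33), within the rule. These near-identical copies can share probes, so signals are assigned to single copies with uncertainty.

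Of the inhibitors of clotting and fibrinolysis, 4 were higher. Serpina10, which inhibits factor Xa together with protein Z, was at 8.80 on the wild-type array and 10.03 on the knockout array, a difference of 1.23 (2.35-fold). Antithrombin (Serpinc1), the main plasma inhibitor of thrombin, was at 11.11 and 12.06 (0.96, or 1.94-fold). Heparin cofactor II (Serpind1), which also inhibits thrombin, was at 9.36 and 10.16 (0.80, or 1.74-fold). Alpha-2 antiplasmin (Serpinf2), the inhibitor of plasmin, was at 9.91 and 10.86 (0.95, or 1.93-fold). These 4 genes differed by 0.80 to 1.23, and Serpina5, the protein C inhibitor, was under the floor. Serpina11, a clade A gene, was at 8.19 and 9.38 (1.19, or 2.28-fold).

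Serpinf1, Serping1 and the remaining clade A genes did not pass the rule. Serpinf1, pigment epithelium-derived factor, a secreted protein that restrains vessel growth, was at 10.996 on the wild-type array and 11.48 on the knockout array. Its difference was 0.48 on the brightest probe set and 0.98 on the other, whose signals were 9.56 and 10.54, so the mean of both passes 1.5-fold. Serping1, the C1 inhibitor of complement and contact activation, was the member just under the rule, at 11.26 and 11.81 (0.55, or 1.46-fold). Serpina12 (vaspin), an adipokine, was at 5.90 and 6.04 (0.14). The pseudogene Serpina4-ps1 was the lowest member above the floor, at 6.28 and 6.02 (-0.26), and its 3 probe sets were all below 0, a direction that turns under scaling to the poly-A controls. Serpina1f, Serpina5 and Serpina9 were under the floor on both arrays, with differences of 0.05, 0.04 and 0.26.

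Regions before the start sites were compared for serpins of clades A, C, D and F, of which 11 were higher. RefSeq promoters (GRCm38.p6) matched 34 of 40 members, and 250 bases before each start were searched on both strands. Not matched, and so not searched, were the higher members Serpina6 and Serpina10, and Serpina9, Serpina4-ps1, Serpinb1a and Serping1. Shown are Serpina7, the farthest from 0 of the members matched, the copies Serpina1b and Serpina1c, Serpinc1, and Serpinf1, whose 2 probe sets were on different sides of the rule. Capitals mark CATCTG, the core of the sequence that RP58 is known to bind, or GTTAAT, the start of the consensus of the liver factor HNF1, on either strand; sequences run 5′ to 3′ on the gene's strand and end at the base before the start site. The windows are chrX:139085220-139085469, chr12:103738190-103738439, chr12:103904951-103905200 and chr11:75422624-75422873 on the minus strand for Serpina7, Serpina1b, Serpina1c and Serpinf1, and chr1:160978333-160978582 on the plus strand for Serpinc1. RefSeq lists 2 promoters for Serpina7, and the one with more matches is shown.
Serpina7: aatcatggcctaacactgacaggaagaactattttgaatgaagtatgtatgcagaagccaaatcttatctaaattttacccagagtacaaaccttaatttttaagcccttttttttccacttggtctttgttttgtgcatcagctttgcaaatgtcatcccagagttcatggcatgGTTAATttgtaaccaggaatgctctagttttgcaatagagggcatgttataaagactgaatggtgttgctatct
Serpina1b: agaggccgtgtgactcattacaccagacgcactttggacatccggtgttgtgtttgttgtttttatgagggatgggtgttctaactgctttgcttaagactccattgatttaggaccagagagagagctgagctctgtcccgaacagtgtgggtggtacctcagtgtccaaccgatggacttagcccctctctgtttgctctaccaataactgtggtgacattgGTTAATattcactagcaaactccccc
Serpina1c: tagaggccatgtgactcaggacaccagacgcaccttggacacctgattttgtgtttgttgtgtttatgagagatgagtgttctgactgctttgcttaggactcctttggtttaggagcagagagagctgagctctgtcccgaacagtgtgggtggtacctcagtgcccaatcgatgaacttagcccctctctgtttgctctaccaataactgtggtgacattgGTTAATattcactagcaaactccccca
Serpinc1: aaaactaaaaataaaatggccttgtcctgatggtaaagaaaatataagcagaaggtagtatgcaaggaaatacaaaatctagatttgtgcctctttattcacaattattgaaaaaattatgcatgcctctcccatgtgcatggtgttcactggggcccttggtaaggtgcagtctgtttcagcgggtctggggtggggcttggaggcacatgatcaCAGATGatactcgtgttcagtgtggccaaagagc
Serpinf1: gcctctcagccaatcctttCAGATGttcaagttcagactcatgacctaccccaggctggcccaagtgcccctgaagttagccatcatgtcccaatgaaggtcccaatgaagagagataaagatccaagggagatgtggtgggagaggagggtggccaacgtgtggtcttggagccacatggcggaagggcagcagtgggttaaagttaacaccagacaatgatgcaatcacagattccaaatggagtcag
In Serpina7 the GTTAAT match begins 74 bases before the start, and in Serpina1b and Serpina1c it begins 26 and 27 bases before it. Serpina1b and Serpina1c share 92.3% of aligned bases in this window. Serpinc1 holds CATCTG on the other strand, beginning 34 bases before the start, and Serpinf1 does so 231 bases before it.

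Among clades A, C, D and F, 3 of 14 genes with a promoter held CATCTG (Serpina3a, Serpinc1 and Serpinf1) and 3 held GTTAAT, against 16.3% and 7.49% of 27025 genes in all (14.4% and 6.43% of 32851 promoters). In clades B and H, 0 of 18 held CATCTG and 1 held GTTAAT, that of Serpinb8. Of the 2 clade I genes, both under the floor, Serpini1 held CATCTG, and Serpini2 held GTTAAT and TATAAA. The longer ACATCTG, which contains CATCTG, was held by 1 member, Serpinf1, and by 4.3% of all genes. The C/EBP motif TTGCNNAA was held by 5 of 14 genes of clades A, C, D and F, by 2 of 18 of clades B and H, and by 10.8% of all genes. Of those 5, Serpina1b and Serpina7 were higher, Serpina12 was within the rule, and Serpina1f and Serpina5 were under the floor. TATAAA was held by 2 of 14 and 4 of 18 (14.3% of all genes), and CAAAGT, part of the HNF4 site, by 2 and 4 (14.1%). TGTTTGC (FOXA) was held by 2 and 1 (4.93%), and ATCGAT (HNF6) by 2 and 0 (0.836%). The 2 with TGTTTGC are the copies Serpina1b and Serpina1c, which are also among the 3 with GTTAAT. Their windows share 92.3% of aligned bases, so they are not independent matches. The 2 with ATCGAT are Serpina1c and Serpina3a. TGTTTAC (3.54%), CAAAGTCCA (0.451%), which contains CAAAGT, the full HNF1 consensus (0.0111%), which contains GTTAAT, and its inner part (0.137%) were held by no member. These 12 motifs are matches of letters, and the counts in either group are small. Several shares in clades A, C, D and F lie above those of all genes, which was not tested.

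Apart from Serpina7, the clade A genes form 1 cluster on their chromosome, in which RefSeq places 28 serpin genes or pseudogenes, 13 of them members. The differences did not follow the order of the cluster. Serpina10 (1.23) and Serpina6 (1.71) are next to each other among the serpin genes at 1 end, Serpina3n (1.24) is the last gene at the other end, and Serpina11 (1.19) lies between. Serpina9, Serpina12, Serpina4-ps1 and Serpina5 follow Serpina11 in that order, with differences of 0.26, 0.14, -0.26 and 0.04, before Serpina3a (0.70). The remaining liver-secreted members Serpinc1, Serpind1, Serpinf1, Serpinf2 and Serpina7 lie on other chromosomes.

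**Figure D3:**
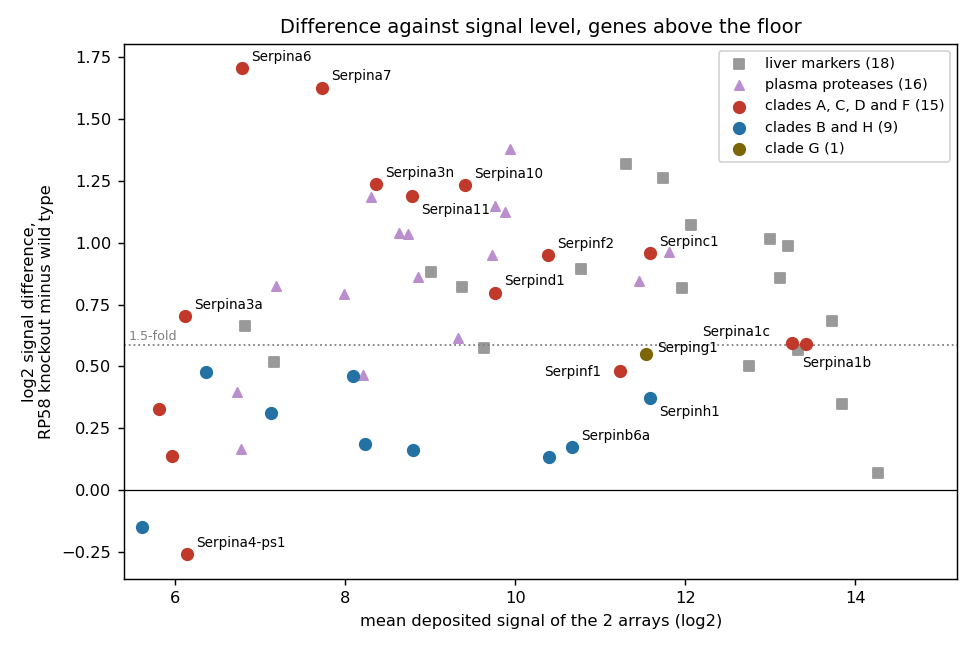
Difference of log2 signal, knockout minus wild type (vertical axis), against the mean deposited log2 signal of the 2 arrays (horizontal axis) for serpins above the floor. Grey squares are liver markers, and triangles are the list of plasma proteases, which includes F13b. Serpina6 and Serpina7 lie above every square and triangle, and the liver marker at the bright end, Alb, lies at 0.07. Signals of different probe sets cannot be compared as levels of RNA.

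Most markers of liver were higher on the same array. All 18 liver markers that are no serpins were above 0, 12 were higher and 0 lower, and their median was 0.82 (1.76-fold), beside 0.80 for clades A, C, D and F. No liver marker was under the floor, and their summed signal was 16.44 on the log2 scale for the wild-type array and 17.07 for the knockout array. Of 15 members of clades A, C, D and F, 7 lay above the liver marker median, and of 9 members of clades B and H, 0 did. Albumin (Alb) was near the top of the scale on both arrays, at 14.23 and 14.30. The 16 markers of skeletal muscle fibres, the labelled tissue, were all above the floor, of which 14 were lower and 0 higher; their median was -1.41. In bulk samples, fewer cells of a type and less RNA per cell cannot be told apart, and the part of liver RNA in the serpin differences was not tested. Lung epithelium (4 of 6 higher, median 0.63, 3 more under the floor) and mesothelium (4 of 9, median 0.58) markers were also higher in part. Differences of the 6 lung markers ran from 0.12 to 3.64. The highest was that of Sftpc, at 7.65 on the wild-type and 11.30 on the knockout array, above every serpin and liver marker.

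The list of plasma proteases of coagulation, the kinin system and complement also holds F13b, which is no protease. Of its 16 genes, 13 were higher, F13b among them, and 0 lower, with a median of 0.90 (1.87-fold). Masp1 (0.47), F7 (0.40) and Habp2 (0.17) were within the rule. Factor X (F10), a target of Serpina10 and Serpinc1, was at 9.25 and 10.63 (1.38), factor XI (F11) at 7.71 and 8.89 (1.18), F13b, a subunit of the fibrin-linking factor XIII, at 9.19 and 10.34 (1.15), and protein C (Proc) at 9.32 and 10.44 (1.12). Thrombin (F2), the target of Serpinc1 and Serpind1, was at 11.33 and 12.29 (0.96), and plasminogen (Plg), the precursor of the target of Serpinf2, at 11.04 and 11.88 (0.85). Of the complement proteases that Serping1 inhibits, C1ra (0.86), C1s1 (0.62) and Masp2 (0.82) were higher, and Masp1 was not. Other plasma carriers and inhibitors, of which 5 are liver markers as well, had a median of 0.82, with 14 of 17 higher, led by Hpx (1.32), Hp (1.26), Ambp (1.01) and Kng1 (0.99). The part of the liver markers given above in these lists was not tested.

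The other lists of partners had lower medians. In the plasminogen activation system 2 of 11 genes were higher, Vtn (0.87) and Plg, with a median of 0.24. Both are plasma proteins, and Plg is counted among the plasma proteases too. Among receptors and cofactors of serpins, 2 of 16 were higher, vitronectin (Vtn) and the heparan sulphate carrier Sdc4 (0.63), and 2 lower, the glypican Gpc1 (-0.61) and the protein C receptor Procr (-0.61), with a median of 0.19. Of 19 members of other inhibitor families 3 were higher, Spink1 (1.80), Wfdc2 (0.77) and Spint2 (0.72), and 0 lower, with a median of 0.15. Spink1, a trypsin inhibitor, was above every serpin member. Against a background of 3.83% higher, 1 of 12 leukocyte proteases (Gzma, 0.72) and 1 of 11 cysteine proteases (Ctsh, 0.82) were higher. Medians of these lists were 0.24 and 0.26. The leukocyte list holds serine proteases and Cpa3, a metalloprotease. Neutrophil elastase (Elane), the target of antitrypsin, was at 0.36, within the rule.

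**Figure D4:**
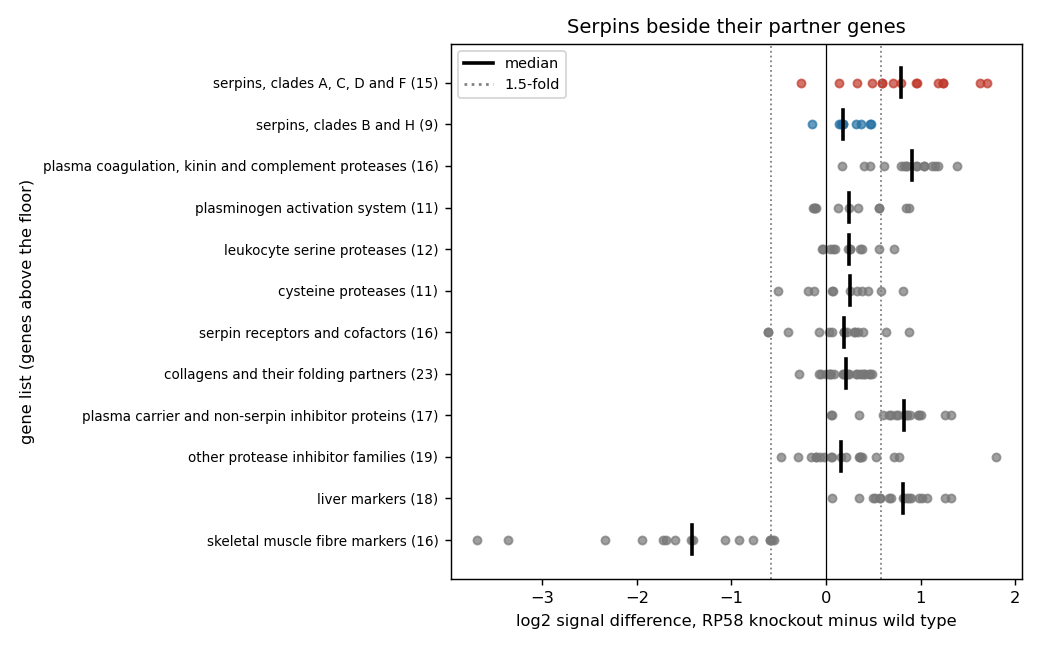
Difference of log2 signal, knockout minus wild type, of each gene above the floor in both serpin groups, in lists of their proteases and partners, and in liver and muscle fibre markers. Black bars are medians and dotted lines mark 1.5-fold. Clades A, C, D and F, the plasma proteases, the plasma carriers and the liver markers have medians of 0.80 to 0.90, and the other lists except muscle fibre markers of 0.15 to 0.26.

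Intracellular clade B serpins were measured at 8 of 18 genes, and none passed the rule in either direction. The background was 10.3%, and with 8 genes this count is close to it. Yet 7 of the 8 were above 0, against 49.4% of all genes above the floor. Serpinb1a, the inhibitor of leukocyte elastase, was at 10.33 on the wild-type array and 10.47 on the knockout array, a difference of 0.13 on the brightest probe set and of -0.19 on the other. Serpinb9, the inhibitor that protects cells from granzyme B, was at 8.15 and 8.33 (0.18), with -0.13 on its second probe set. Serpinb6a, Serpinb6b and Serpinb6e, mouse relatives of a cathepsin G inhibitor, were at 0.17, 0.46 and 0.16, from signals of 10.59, 7.86 and 8.72 for wild type and 10.76, 8.32 and 8.88 for the knockout. Serpinb8, an inhibitor of furin, had the largest difference of clade B above the floor, 0.48, with signals of 6.13 and 6.60. Serpinb9b was at 6.98 and 7.29 (0.31), and Serpinb11 at 5.68 and 5.53 (-0.15), the only one of the 8 below 0, which turns above 0 when scaled to the poly-A controls. On the same arrays granulocyte and mast cell markers had a median of 0.43, with 2 of 8 higher, and macrophage markers one of 0.26, with 0 of 8; their part in these values was not tested.

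The other 10 clade B genes were under the floor on both arrays. They are Serpinb1b, Serpinb2 (plasminogen activator inhibitor 2), Serpinb3a, Serpinb5 (maspin), Serpinb6c, Serpinb7, Serpinb9c, Serpinb9d, Serpinb9g and Serpinb12. Their differences ran from -0.33 for Serpinb12 to 0.51 for Serpinb9g, with a median of 0.08, and their mean signals from 3.89 to 5.20. Several of these genes are typical of squamous epithelium, and epidermis markers were unequal on these arrays, with 1 of 6 higher, 3 lower and 2 more under the floor.

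The collagen chaperone gene Serpinh1 was at 11.41 on the wild-type array and 11.78 on the knockout array, a difference of 0.37 (1.29-fold), and both of its probe sets gave 0.37. Among 23 collagens and collagen-folding partners, 20 were above 0, and 0 were higher and 0 lower by the rule, with a median of 0.21. Over all genes above the floor, 49.4% were above 0 and 10.3% passed the rule in either direction. Differences in the collagen list ran from -0.29 to 0.49. Col1a1 and Col1a2, the chains of type I collagen, were at 0.42 and 0.20. Connective tissue fibroblast markers had a median of 0.32, with 1 of 11 higher, and their part in the value of Serpinh1 was not tested.

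Clade I genes were under the floor. Serpini1 (neuroserpin), which inhibits tissue plasminogen activator in the nervous system, was at 5.14 and 4.92 (-0.22), under the floor on both arrays, and its other probe sets differed by -0.42 and 0.04. Serpini2, a gene of the exocrine pancreas, was at 4.60 and 4.70 (0.09). Neuron and Schwann cell markers were also dim, with 4 of 7 above the floor and none past the rule.

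The values of repeat probe sets were not equal. Of 12 members with several probe sets, 7 had differences further apart than the pooled SD of 0.28. That SD comes from probe sets above the floor, where the gap between probe sets of a gene has a 95th percentile of 0.78. The share of all genes with a gap past the SD was not counted. Of the 12, 5 had probe sets on both sides of 0: Serpinb1a, Serpinb5, Serpinb9, Serpinb12 and Serpini1. All probe sets of Serpinb5, Serpinb12 and Serpini1 were under the floor. Of the 11 higher members only Serpina1b had a second probe set annotated to it alone, and the other 10 rest on 1 probe set each. Both probe sets of Serpina1b are of the _x_at kind, which the alternative with unique probe sets leaves out. A probe set shared by Serpina1a and Serpina1d, which the choice of members leaves out, was at 12.87 and 13.08, a difference of 0.21, below the 0.59 of Serpina1b and Serpina1c. A probe set shared by Serpinb9e, Serpinb9f, Serpinb9g and Serpinb9h differed by 0.16.

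**Figure D5:**
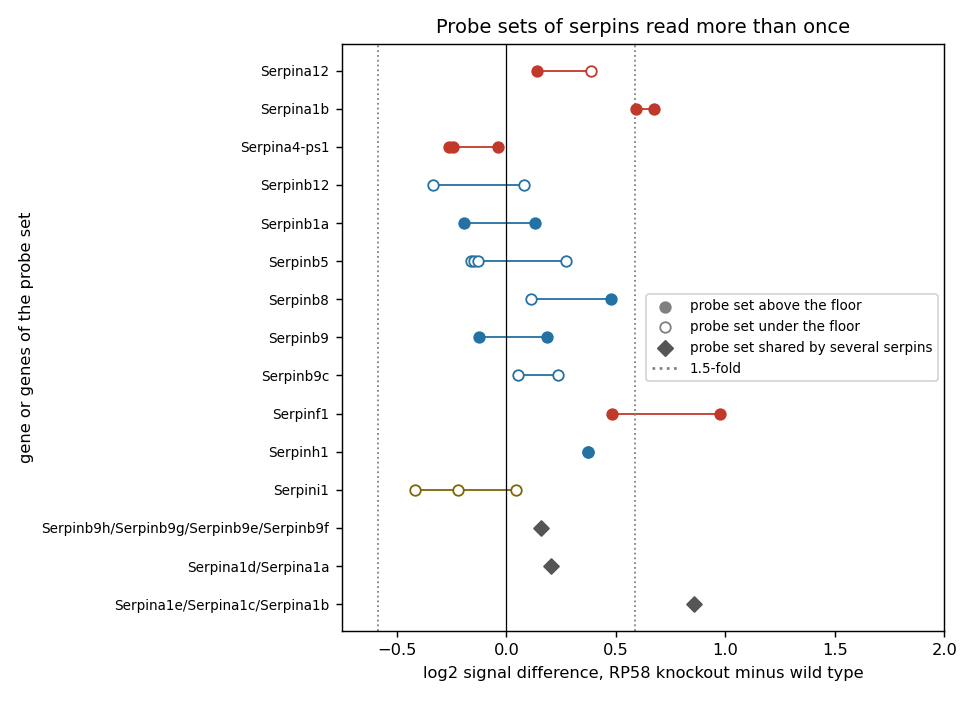
Difference of log2 signal, knockout minus wild type, for each probe set of the 12 serpins read by more than 1 (red for clades A and F, blue for B and H, brown for I; filled above the floor, open under it), and for 3 probe sets shared by several serpins (diamonds). Lines join the probe sets of a gene and dotted lines mark 1.5-fold. Both probe sets of Serpinh1 coincide at 0.37, those of Serpinf1 lie on either side of 1.5-fold, and those of 5 genes lie on both sides of 0.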

How the data were processed

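RNA was extracted with ISOGEN and hybridised as biotin-labelled cRNA, per the labels' protocols. The authors computed log2 signals per probe set with RMA, per the series' design text, and the submitters' processing notes name Affymetrix Expression Console 1.1. The deposited log2 values were already normalised between 2 arrays, 1 for each genotype, which removes any difference in total mRNA, and their number limits the precision. The design text names the 430A 2.0 array, but the table's 45101 probe sets fit the annotation of a larger design.

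Of these, 34945 carried 1 gene symbol, 932 several, 9160 none here and 64 were controls. The Entrez IDs of all 40 serpins gave unchanged symbols in RefSeq. Genes were read from the probe set with the highest mean of both arrays (Python 3.11.15, pandas 2.3.3), and counted by the 1.5-fold rule. The counting code was checked on simulated data, which tests no call. Members, lists and motifs were chosen with earlier results of these data known. Every member is named; of other lists, at most 4 genes past the rule, farthest from 0 first. Genes named beyond this (F2, Plg, C1ra, C1s1, Masp1, Masp2, F7, Habp2, Elane, Col1a1, Col1a2 and Alb) were chosen after their values were seen. Medians were 0.14 for megakaryocyte, -0.29 for tendon and cartilage, -0.22 for endothelium and 0.12 for smooth muscle markers, and the 2 trophoblast markers read were under the floor. Alternatives were the mean over probe sets, other floors, centring by median or loess, unique probe sets, poly-A scaling, other size rules and means for medians.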

Additional observations from a re-analysis of the deposited data

Results flagged for a closer look

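2 signals lie outside the members and passed the 1.5-fold rule. A probe set shared by Serpina1b, Serpina1c and Serpina1e, left out because it carries several symbols, was at 9.15 on the wild-type and 10.01 on the knockout array, a difference of 0.85 (1.81-fold). Agt, angiotensinogen, a clade A serpin whose symbol does not begin with Serpin, was at 8.83 and 10.11, a difference of 1.28 (2.43-fold).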

How the results depend on the processing

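With 1 array for each genotype, no value has an error between embryos. The 8 gene list medians and the gap between the clade groups (0.48 to 0.77) moved by less than the pooled probe set SD under each alternative run for them; the lists were not run with poly-A scaling, which raises every gene's difference by 0.75, more than that SD. Scaling to the poly-A controls gave 9990 genes higher and 182 lower, 24 serpins higher, and medians of 1.55 for clades A, C, D and F and 0.93 for clades B and H. A 2-fold rule gave 128 genes higher, 326 lower and 5 serpins higher (Serpina3n, Serpina6, Serpina7, Serpina10 and Serpina11). With a threshold of 0.78, the 95th percentile of the gap between probe sets of a gene, the rule gave 251 and 521 genes, and 8 serpins. Centring on the median dropped Serpina1b and Serpina1c from the 11, and averaging probe sets added Serpinf1. With unique probe sets (no _s_at, _x_at or _a_at kinds), Serpina10 and Serpina1b could not be read, and the other 9 stayed higher. With the floor at the 60th percentile Serpina3a fell under it, and the other 10 stayed higher. No paired analysis was possible because each genotype has 1 array.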
